A study of Drosophila melanogaster with 5 samples.

Results

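The 9 genes described here encode testis paralogs of proteasome subunits in Drosophila melanogaster, namely Prosalpha3T, Prosalpha4T1, Prosalpha4T2, Prosalpha6T, Prosbeta2R1, Prosbeta2R2, Rpt3R, Rpt4R and Rpt6R. They were chosen by name, and all transcripts listed for them in the count data were taken. This gave 12 transcripts of 9 genes, out of 34111 transcripts that carry 16975 gene symbols. Of the 12 transcripts 10 had at least 1 read, and 9 transcripts of 8 genes passed the minimum of 10 reads summed over all libraries and were tested. The gene left without a tested transcript is Rpt4R.

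Polyadenylated RNA was sequenced from whole adult males of the wild-type strain Oregon-R, which the sample labels give as 3 days old. LB-flies (low background, 3 libraries) developed in the shielded underground laboratory, and NB-flies (natural background, 2 libraries) developed in the laboratory on the ground. Both groups were kept on the same medium at the same temperature in the dark, and each library pools the males of 1 vial, so that the vials are separate but belong to 1 experiment. Whether the testis paralogs differed between LB-flies and NB-flies is the question of the comparison below.

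The proteasome degrades proteins that carry ubiquitin. Its barrel-shaped core is built of rings of alpha subunits, which form the gate, and rings of beta subunits, some of which cut the substrate. A regulatory particle with a ring of Rpt ATPases sits on the core, unfolds the substrate and opens the gate. In Drosophila many subunits have a paralog that is expressed in the male germline, mainly in late spermatogenesis, when spermatids lose most of their cytoplasm and rebuild their chromatin. Of the members, Prosalpha6T is known to be needed for male fertility in the fly.

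The positions of the genes were taken from the annotation of the dm6 assembly, Release 6, to which the authors aligned their reads. Of the alpha subunit paralogs, Prosalpha3T (CG1736) lies on chromosome 3R from 31122527 to 31123415, Prosalpha4T1 (CG17268) on 3R from 20748184 to 20749074, Prosalpha4T2 (CG4569) on 2R from 24500780 to 24502277, and Prosalpha6T (CG5648) on 2L from 13232039 to 13233058. The paralogs of the catalytic subunit Prosbeta2 are Prosbeta2R1 (CG18341) on chromosome X from 5808954 to 5810158 and Prosbeta2R2 (CG12161) on 3R from 5217751 to 5219528. The paralogs of the ATPases are Rpt3R (CG9475) on 3R from 9754735 to 9756510, Rpt4R (CG7257) on 3L from 11941912 to 11943485, and Rpt6R (CG2241) on 3R from 30582198 to 30583697. Thus 5 of the 9 genes lie on 3R, which holds 3421 of all 13986 protein-coding genes. On X lies 1 of the 9 (11.1%), whereas 4 of their 7 general counterparts (57.1%) lie there, against 15.7% of all protein-coding genes. Prosalpha3T, Prosalpha4T1 and Prosalpha6T consist of 1 exon each, so that 3 of 9 members (33.3%) have no intron, against 0 of the 7 general counterparts and 15.3% of all protein-coding genes. The encoded proteins are close in length to those of the general genes for the alpha subunits and ATPases, with 251 residues for Prosalpha3T against 264 for Prosalpha3, and 399 for Rpt6R against 405 for Rpt6. The beta paralogs are longer, with 307 residues for Prosbeta2R1 and 322 for Prosbeta2R2 against 272 for Prosbeta2. Of the 5 other proteasome paralogs followed below, 2 (40%) have no intron and 0 lie on X.

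Ambiguous reads, which overlap several transcripts, enter no count, so that the structure of a gene can limit how many of its reads are counted. Such reads made up between 53.9% and 56.5% of a library, and a library kept between 23027411 and 26036113 counted reads. The 6 members with 1 annotated transcript (Prosalpha3T, Prosalpha4T1, Prosalpha6T, Prosbeta2R1, Prosbeta2R2 and Rpt6R) had between 2579 and 15018 counted reads over all libraries. Their exons share no base with an exon of another gene, although Prosalpha4T1 lies within an intron of CG42322 on the opposite strand. The 3 members with 2 annotated transcripts had far fewer reads. In Prosalpha4T2 the exons of the shorter transcript lie wholly within those of the longer, which has 85 bases of its own, and the counts list 217 reads for 1 transcript and 0 for the other. In Rpt4R the longer transcript has 111 bases of its own, and the counts list 8 reads and 0. The transcripts of Rpt3R have 38 and 20 bases of their own, and the 20 bases overlap an exon of Alg12 on the opposite strand. For these transcripts 69 and 13 reads were counted. The values of these 3 genes may therefore describe only short stretches, and they are not taken as the level of the gene. Whether their counts are low because of ambiguous reads or because of low expression was not tested.

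Levels are given below as CPM (the count of a transcript in relation to the library size, here the counted reads times the TMM factor). The highest of the members was Prosalpha6T, with 108 and 101 CPM in the NB libraries (replicates 1 and 2) and 129.9, 133 and 142 CPM in the LB libraries (replicates 1, 2 and 3). Every LB library was thus higher than the NB libraries. The LB mean of 135 ± 6.30 CPM (SD, n = 3) against the NB mean of 105 ± 4.998 CPM (SD, n = 2) corresponds to a log2 fold change of 0.37 (SE 0.12, 95% interval from 0.09 to 0.65), or 1.29-fold. The unadjusted p by the quasi-likelihood test of edgeR was 0.0181, and the adjusted p over all 17337 transcripts was 0.625 (0.420 at the lowest in the alternatives), so that the difference did not pass the test. The unadjusted p of edgeR's test was 0.0150 without LB replicate 1, but 0.0776 without LB replicate 2 and 0.0634 without LB replicate 3. These fits also have 1 library fewer. The log2 fold change lay between 0.31 and 0.43 in the fits without 1 library of either group.

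Rpt6R, the paralog of an ATPase, had 99.0 and 99.3 CPM in the NB libraries and 112, 116 and 118 CPM in the LB libraries. The NB values were almost equal, and each LB value exceeded them. The log2 fold change was 0.22 (SE 0.11, 95% interval from -0.04 to 0.48), with an adjusted p of 0.628 by edgeR. Prosbeta2R1, a paralog of the subunit with trypsin-like activity, had 36.8 and 35.4 CPM in NB-flies and 44.3, 43.8 and 42.6 CPM in LB-flies. Here too the groups did not overlap, and the LB values differed little among themselves, with a coefficient of variation of 2.01%. The log2 fold change of Prosbeta2R1 was 0.27 (SE 0.11, 95% interval from -0.0056 to 0.55), with an adjusted p of 0.625 by edgeR.

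The other paralog of the same catalytic subunit, Prosbeta2R2, had 45.3 and 42.2 CPM in NB-flies and 51.1, 46.7 and 44.2 CPM in LB-flies. The value of LB replicate 3 lay between those of the NB libraries, so that the groups overlapped. Its log2 fold change was 0.11 (SE 0.13, 95% interval from -0.19 to 0.42), with an adjusted p of 0.823 by edgeR, and the intervals of both beta paralogs overlap over most of their length. Prosalpha4T1 had 36.6 and 28.5 CPM in NB-flies and 38.8, 35.6 and 32.6 CPM in LB-flies. The NB libraries differed more from each other than the group means did, and without NB replicate 2 the log2 fold change of Prosalpha4T1 went from 0.13 (SE 0.16) to -0.044. Prosalpha3T, the lowest of the 6 members with 1 transcript, had 20.0 and 21.9 CPM in NB-flies and 23.8, 19.2 and 19.6 CPM in LB-flies. Its log2 fold change was -0.0063 (SE 0.16, 95% interval from -0.40 to 0.38), with an adjusted p of 0.995 by edgeR, and the interval does not exclude a change of 1.30-fold upward.

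**Figure D1:**
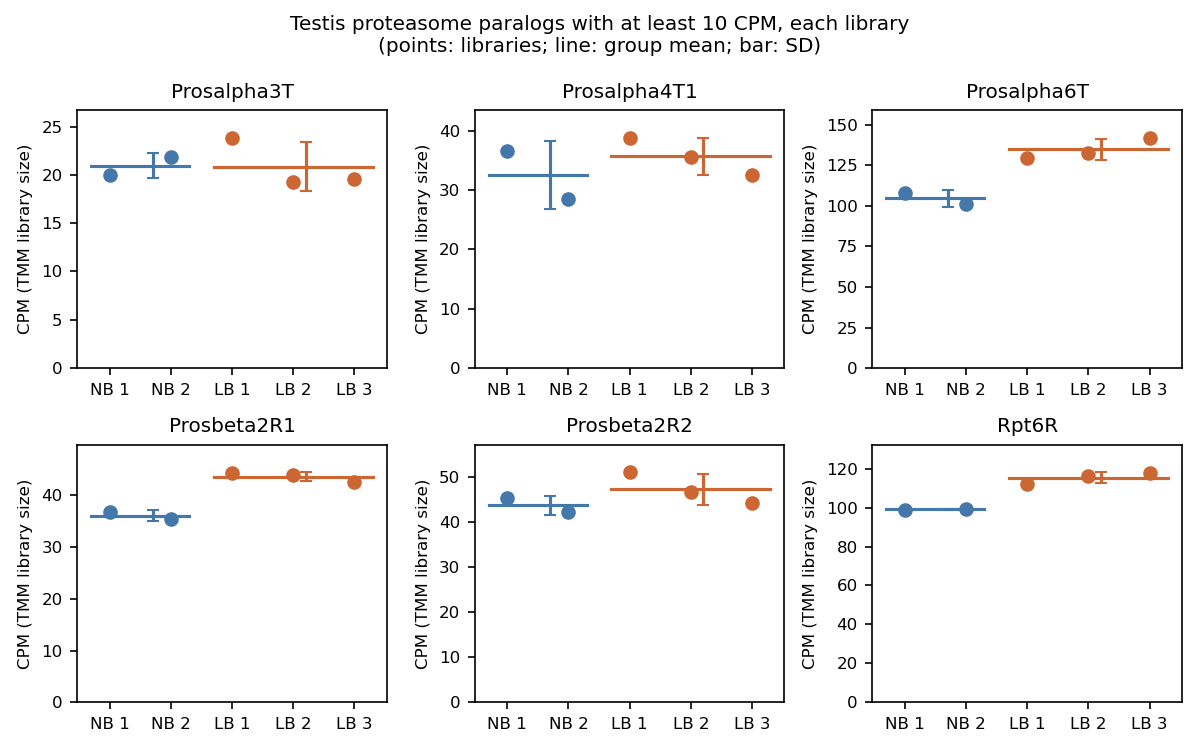
Each panel plots the CPM of 1 testis paralog (vertical axis from 0) in the NB libraries (blue) and LB libraries (orange), with the group mean as a line and the SD as a bar. The LB points of Prosalpha6T, Prosbeta2R1 and Rpt6R lie above both NB points, whereas the groups overlap for Prosalpha3T, Prosalpha4T1 and Prosbeta2R2.

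The transcripts with few reads allow only wide limits. The counted transcript of Prosalpha4T2 had 37 and 37 reads in the NB libraries and 52, 30 and 61 reads in the LB libraries. LB replicate 2 lay below both NB libraries and the other LB libraries above them, with a log2 fold change of 0.44 (SE 0.33, 95% interval from -0.35 to 1.23) that was 0.20 without LB replicate 3. The more abundant transcript of Rpt3R had 13 and 9 reads in NB-flies and 22, 12 and 13 reads in LB-flies, and in CPM its LB values lay just above the NB values, between 0.545 and 0.840 against 0.345 and 0.524. The other transcript of Rpt3R had between 1 and 5 reads in a library. For Rpt4R the 8 reads were spread as 1 and 1 over the NB libraries and 4, 0 and 2 over the LB libraries, which is about the level of 3 reads (between 0.115 and 0.1303 CPM) that these depths can show, so that no fold change is given. None of these differences passed the test, and at this depth a change of up to 2.35-fold upward in the counted transcript of Prosalpha4T2 would lie within its interval.

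Among the tested members, 0 of 9 transcripts passed the quasi-likelihood test of edgeR at an adjusted p under 0.05, and 0 of all 17337 transcripts did (0%). DESeq2 called 0 of the 9 as well, with 0.438% of all transcripts called at a 1.5-fold limit. Its smallest adjusted p among the members was 0.485 (Prosalpha6T), and the transcripts of Rpt3R received none. At an unadjusted p under 0.05 in edgeR's test, 1 member (Prosalpha6T) was higher in LB-flies, where 3.92% of all tested transcripts were, and 0 were lower, where 3.66% were (7.58% in either direction). Of the 9 members 4 had all LB values above both NB values (Prosalpha6T, Prosbeta2R1, Rpt6R and the more abundant transcript of Rpt3R), against 14.8% of all transcripts, and 0 had all LB values below, against 13.1%. The log2 fold change was above 0 for 7 of the 9 members, against 47.4% of all transcripts, for 8 of 9 when only the library total was used for scaling, and for 5 of 9 when libraries were scaled to a list of spermatocyte and spermatid genes, a scaling chosen after seeing the data. The median log2 fold change of the 9 members was 0.22, beside -0.023 over all tested transcripts. These counts include the transcripts with few reads. Of the 6 members with 1 transcript, 3 had all LB values above both NB values and 0 had all below. For 5 of these 6 the log2 fold change was above 0, and the median of the 6 was 0.18. The members were measured in the same 5 libraries and are not independent of each other.

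Per length of exon, the members with 1 transcript fall into an order that was the same at the top and bottom in both groups. In LB-flies Prosalpha6T had 132 ± 6.17 CPM per kb (SD, n = 3), followed by Rpt6R with 79.8 ± 1.92. Prosbeta2R1 (40.5 ± 0.812), Prosalpha4T1 (40.0 ± 3.47) and Prosbeta2R2 (35.9 ± 2.65 CPM per kb) came next. Of these, Prosbeta2R1 and Prosalpha4T1 did not differ beyond their spread, and Prosbeta2R2 lay below Prosalpha4T1 by more than either SD. Prosalpha3T was lowest with 23.5 ± 2.89 CPM per kb. In NB-flies the levels were 103 ± 4.90 CPM per kb for Prosalpha6T, 68.6 ± 0.154 for Rpt6R and 23.6 ± 1.5001 for Prosalpha3T, and the 3 genes between them had 36.5 ± 6.47 (Prosalpha4T1), 33.5 ± 0.949 (Prosbeta2R1) and 33.2 ± 1.63 (Prosbeta2R2), within the spread of Prosalpha4T1. The general counterparts with 1 transcript lay between 116 (Prosalpha4) and 258 CPM per kb (Prosalpha3) in LB-flies, and between 135 and 263 CPM per kb for the same genes in NB-flies. The level of Prosalpha6T lay within this range in LB-flies and below it in NB-flies, and the other 5 members with 1 transcript lay below it in both groups.

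The 7 general counterparts (Prosalpha3, Prosalpha4, Prosalpha6, Prosbeta2, Rpt3, Rpt4 and Rpt6), which are used in cells of all kinds, showed other values. The log2 fold change was below 0 for 6 of the 7 tested transcripts, where 52.6% of all transcripts were, with a median of -0.13. For none of them were the groups separate, where 14.8% of all transcripts had every LB value above and 13.1% every LB value below. Of the 7, 0 passed the test of edgeR or DESeq2, with 0 at an unadjusted p under 0.05 in edgeR, where 7.58% of all transcripts were. Rpt4 had 287 and 264 CPM in NB-flies and 197, 221 and 265 CPM in LB-flies, with log2 fold change -0.27 (SE 0.16, adjusted p = 0.665 by edgeR), and Prosalpha4 had 169 and 149 CPM in NB-flies and 109, 136 and 164 CPM in LB-flies. In both genes LB replicate 1 was the lowest and LB replicate 3 came within the range of the NB values. The LB libraries were thus further apart for the general subunits than for most of the paralogs. The coefficient of variation among LB libraries lay between 9.14% and 20.3% for the 5 general counterparts with 1 transcript, and between 2.01% and 12.3% for the 6 paralogs. Of Prosalpha6 and Rpt3, which have nested transcripts, only 239 and 110 reads were counted, and their levels are not compared.

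**Figure D2:**
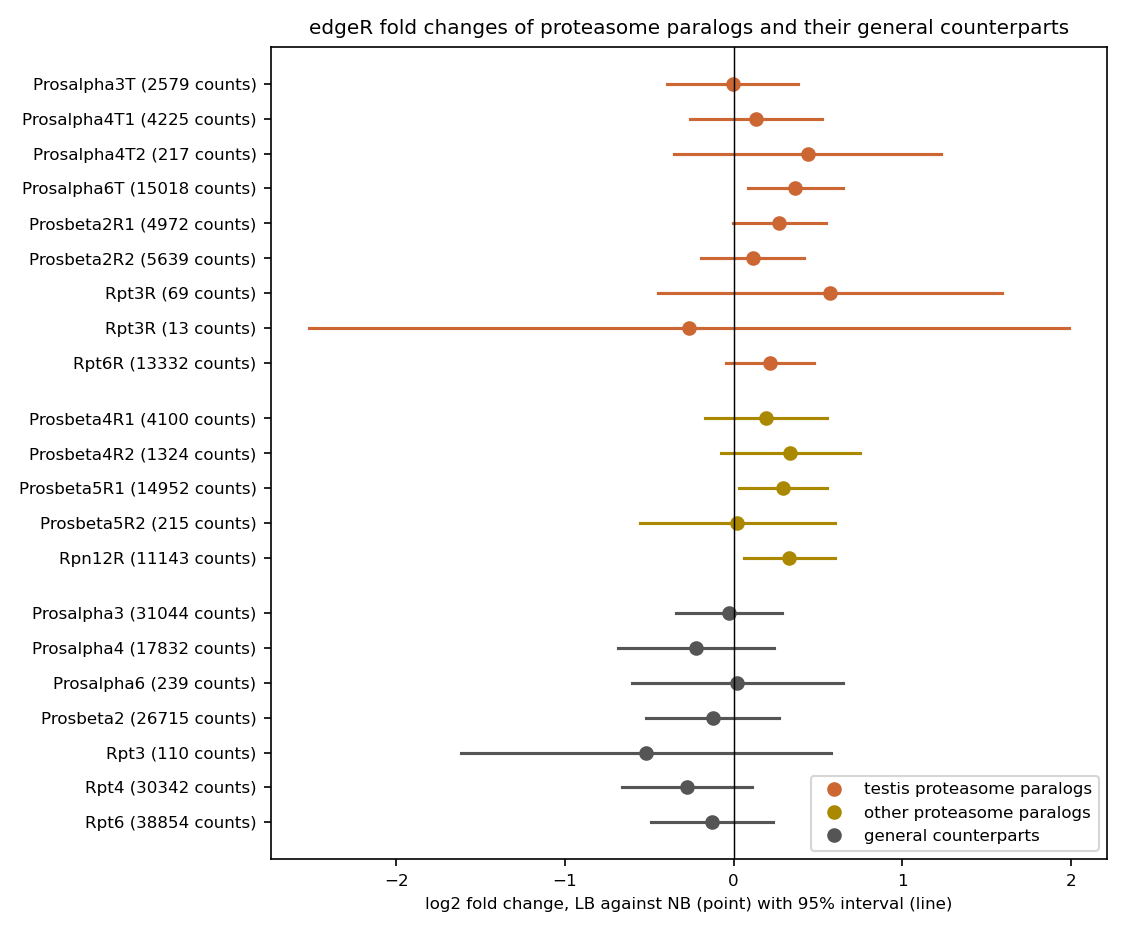
The horizontal axis gives the log2 fold change from edgeR, LB over NB (points), with its 95% interval (lines), and each line on the vertical axis is 1 tested transcript with its summed reads. Among the members only the interval of Prosalpha6T lies wholly above 0, from 0.09 to 0.65, and the intervals of the general counterparts all include 0.

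For 5 members both the paralog and its counterpart have 1 transcript, so that the share of the paralog in their summed reads per kb could be followed in each library. The share of Rpt6R beside Rpt6 was 21.4% and 23.5% in the NB libraries, against 28.5%, 27.7% and 24.8% in the LB libraries. That of Prosbeta2R1 beside Prosbeta2 was 12.7% and 13.6%, against 19.1%, 16.9% and 14.4%. In both pairs every LB share exceeded the NB shares, by a small margin in LB replicate 3. The share of Prosbeta2R2 beside Prosbeta2 was 12.8% and 13.3%, against 18.2%, 14.995% and 12.4%, and that of Prosalpha4T1 beside Prosalpha4 was 22.2% and 20.1% against 31.98%, 25.7% and 20.8%. In these the groups overlapped because of LB replicate 3. Prosalpha3T stayed the smallest share of the 5, with 7.72% and 8.75% in the NB libraries, against 10.2%, 7.75% and 7.23%. LB replicate 1 had the highest share in all 5 pairs. A share rises with a higher paralog or with a lower counterpart. LB replicate 1 was the lowest library for Prosalpha3 (229 CPM), Prosalpha4 (109 CPM), Prosbeta2 (180 CPM) and Rpt6 (274 CPM). It was also the highest library for Prosalpha3T (23.8 CPM), Prosalpha4T1 (38.8 CPM), Prosbeta2R1 (44.3 CPM) and Prosbeta2R2 (51.1 CPM). For Rpt6R it was the lowest of the LB libraries (112 CPM). The libraries can be divided in only 10 ways and an exact permutation test could not go below 0.1, so that the shares were not tested. Prosbeta2 and Rpt6 share 82 and 182 exon bases with genes on the opposite strand, and reads there may be missing from their counts.

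**Figure D3:**
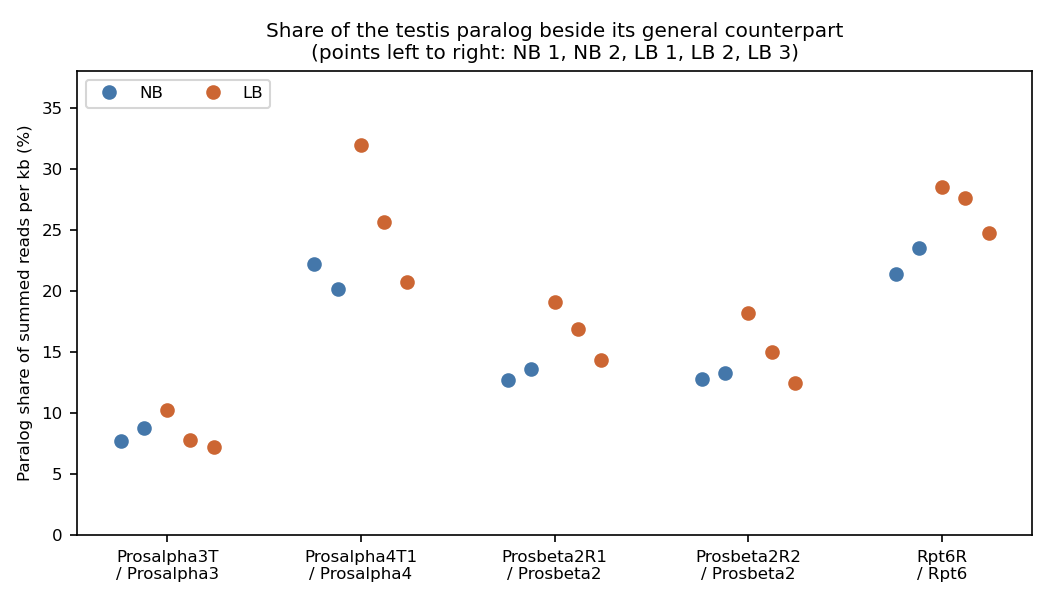
The vertical axis gives the share (%) of the testis paralog in the reads per kb of the paralog and its general counterpart, for 5 pairs and for each NB library (blue) and LB library (orange). The shares of Rpt6R and Prosbeta2R1 are higher in every LB library than in NB libraries, and LB replicate 1 is the highest point of every pair.

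Other subunits have paralogs of the same kind, and 5 of them were followed as a list, of which all 5 were tested through 1 transcript each. Prosbeta5R1, a paralog of another catalytic subunit, had 108 and 107 CPM in NB-flies and 132, 135 and 129 CPM in LB-flies, with log2 fold change 0.29 (SE 0.11). Rpn12R, a paralog of a subunit of the regulatory particle, had 81.4 and 76.3 CPM in NB-flies and 100.8, 101 and 95.6 CPM in LB-flies, with log2 fold change 0.33 (SE 0.11). Both had separate groups and edgeR gave them an unadjusted p of 0.0332 and 0.0236, but the adjusted p of each was 0.625. Prosbeta4R2 had log2 fold change 0.34 (SE 0.17) with separate groups, and for Prosbeta4R1 (0.19, SE 0.15) and Prosbeta5R2 (0.023, SE 0.24) the groups overlapped. Prosbeta4R2 (1324 counted reads) and Prosbeta5R2 (215 counted reads) have nested transcripts, so that the limit given for the members with 2 transcripts holds for them too. Prosbeta4R2 also shares 69 exon bases with Or23a on the same strand. The median of the 5 was 0.29. Thus 3 of the 5 had all LB values above the NB values, beside 14.8% of all transcripts, and 2 were higher at an unadjusted p under 0.05, beside 3.92%. The remaining general subunits and regulators of the proteasome, 36 tested transcripts of 26 genes, had a median log2 fold change of -0.09. The range was from -0.45 to 0.93, with 9 above 0, beside 47.4% of all transcripts, and 27 below, beside 52.6%. In 5 of them all LB values were above the NB values, beside 14.8% of all transcripts, and in 4 all were below, beside 13.1%. Of the 36, 0 passed the test of edgeR (0 at an unadjusted p under 0.05, beside 7.58% of all transcripts) or DESeq2.

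In spermatids of the fly, the proteasome is engaged through the inhibitor-like regulator PI31 with the F-box protein Nutcracker (ntc), and through a Cullin-3 ubiquitin ligase that starts the caspases of individualization. Of 14 tested transcripts of 9 genes of this machinery, 9 had a log2 fold change above 0, beside 47.4% of all transcripts, with a median of 0.22 and a range from -0.49 to 1.55. In 7 of them all LB values were above the NB values, beside 14.8% of all transcripts, and in 1 all were below, beside 13.1%. Of the 14, 0 passed the test of edgeR (0 at an unadjusted p under 0.05, beside 7.58% of all transcripts) or DESeq2. The most abundant was soti, an inhibitor of that Cullin-3 ligase, with 440.2 ± 10.7 CPM (SD, n = 3) as the LB mean, 369.9 ± 2.55 CPM (SD, n = 2) as the NB mean and log2 fold change 0.25 (SE 0.12). The corresponding means were 259 ± 6.63 and 225 ± 4.90 CPM for ntc, and 171 ± 27.8 and 139 ± 4.10 CPM for the most abundant transcript of Cul3.

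Markers of the male germline were followed beside these values, and their part in the values of the paralogs was not tested. A list of 21 genes of spermatocytes and spermatids gave 23 tested transcripts of 20 genes, and 19 of these had a log2 fold change above 0, beside 47.4% of all transcripts, with a median of 0.28. In 11 of them all LB values were above the NB values, beside 14.8% of all transcripts, and in 3 all were below, beside 13.1%. Their summed level was 6397 and 5711 CPM in NB-flies and 7362, 7557 and 7318 CPM in LB-flies, so that the groups did not overlap. The most abundant were betaTub85D, the testis beta-tubulin, with a log2 fold change of 0.24 (SE 0.14), the sperm chromatin gene Mst77F with 0.28 (SE 0.12), and the sperm tail genes Mst98Ca and Mst98Cb with 0.34 (SE 0.13) and 0.29 (SE 0.13). The gene twe had no count in any library. Of 4 early germline genes 2 were tested, with log2 fold changes below 0 and overlapping groups, namely bam, which starts the differentiation of germline cells, with -0.60 (SE 0.40) and nanos, a gene of germline stem cells, with -1.29 (SE 1.19). The level of bam was 3.31 CPM in LB-flies and 5.02 CPM in NB-flies, and nanos was below 1 CPM. Of the list, 0 transcripts passed the test of edgeR, with 4 higher in LB-flies at an unadjusted p under 0.05 (3.92% of all transcripts) and 0 lower (3.66%), and 1 passed that of DESeq2, Mst84Dc, a sperm tail gene, with log2 fold change 0.69 (SE 0.12). When the libraries were scaled to this list, the median of all transcripts moved from -0.023 to -0.19. The log2 fold change of Prosalpha6T went from 0.37 to 0.20, that of Prosbeta2R1 from 0.27 to 0.11 and that of Rpt6R from 0.22 to 0.053. Their adjusted p in edgeR's test with this scaling lay between 0.624 and 0.902. This scaling moves every transcript by nearly the same amount, whatever its own values, so that it is no test of the paralogs. Before the scaling, Prosalpha6T lay above the list's own median of 0.28, and Prosbeta2R1 and Rpt6R lay below it. Whether the paralogs rose more than the list was not tested. In RNA of whole flies, more cells of the testis and more RNA in each of these cells cannot be told apart.

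**Figure D4:**
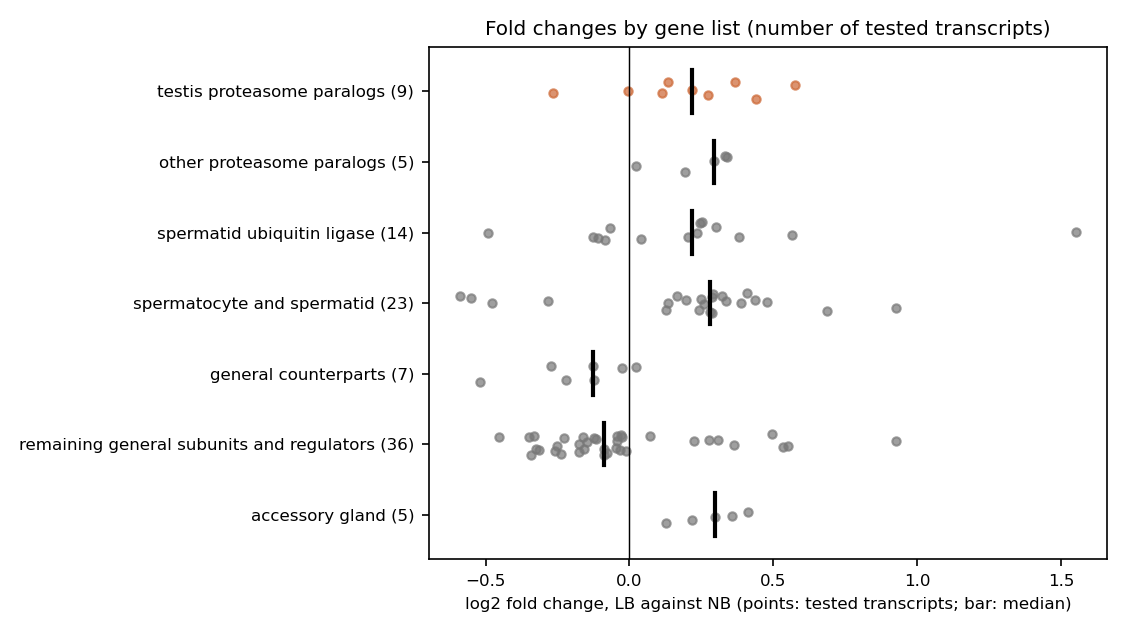
Each point is the log2 fold change (horizontal axis, LB against NB) of 1 tested transcript, in rows for the gene lists, and the black bar is the median of the list. The medians are 0.22 for the testis paralogs, 0.29 for the other proteasome paralogs and 0.28 for spermatocyte and spermatid genes. The median of the accessory gland genes is 0.30, and that of the general counterparts is -0.13.

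Markers of other tissues were followed to check the samples. The female genes Yp1 and Vm26Aa had no count, and the 10 transcripts of the female list summed to at most 0.909 CPM in a library. The 5 accessory gland genes summed to 1920.4 and 2049 CPM in NB-flies and 1038, 2934 and 3229.8 CPM in LB-flies, and the genes of the ejaculatory duct and bulb to 1625 and 1519 CPM against 600.5, 2202 and 2142 CPM. LB replicate 1 thus stood apart as the lowest library in these male tissues. In the fits without this library the log2 fold change of Prosalpha6T was 0.40, that of Prosbeta2R1 0.27 and that of Rpt6R 0.24, while that of Prosbeta2R2 went from 0.11 to 0.061. With all libraries, the 5 tested accessory gland transcripts all had a log2 fold change above 0, beside 47.4% of all transcripts. Their median was 0.30, which is not below that of the testis paralogs. In 0 of them were the groups separate, beside 14.8% (LB above) and 13.1% (LB below) of all transcripts.

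The transcripts whose pattern over the 5 libraries was most like that of the members were found among 6453 transcripts with a mean of at least 10 CPM. The mean log2 CPM of the 9 tested members, centred over the libraries, was -0.053 and -0.16 in the NB libraries, against 0.13, -0.011 and 0.10 in the LB libraries. Over the 6 members with 1 transcript alone it was -0.069 and -0.15, against 0.13, 0.051 and 0.034, so that the order of LB replicates 2 and 3 turned with the 3 transcripts of few reads. The smallest root mean square differences from the mean of the 9 were 0.019 (log2 scale) for each of sut4, CG5043 and CG31776, against a median of 0.21 over all 6453. Their log2 fold changes were 0.19, 0.19 and 0.16.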

How the data were processed

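RNA-seq data of 5 libraries of Drosophila males were used, 3 of LB-flies and 2 of NB-flies, grouped by the treatment given in the labels. Adapters were removed by the authors with Cutadapt through TrimGalore, alignment to dm6 with masked repeats was done in HISAT2, and HTSeq was used for counting. The library kit was stranded, but whether the counting used the strand is not given in the sources used here. The deposited values are whole-number read counts for 34111 RefSeq transcripts, without normalization, and 5 summary lines were left out. Transcripts were matched to symbols in a RefSeq gene table of the same release (33899 matched), and exon lengths were taken from the Ensembl annotation.

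Transcripts with at least 10 reads summed over the libraries (17337) were scaled by TMM factors, and LB was compared with NB in edgeR 4.0.16 (quasi-likelihood F-test, R 4.3.3) with Benjamini-Hochberg adjustment over all of them, an adjusted p under 0.05 and a 1.5-fold limit. The SE is the fold change divided by the root of the F statistic. DESeq2 1.42.0 and limma-voom (limma 3.58.1), other scalings and filters, summed transcripts, replicate blocks and each library left out were alternatives. The scripts were tested on simulated data. The lists, members and named genes (all members, their counterparts, the 5 other paralogs, the most abundant of each other list and the 3 transcripts most alike in pattern) were chosen with earlier results of these data known. Vials are separate, but p-values measure only the spread between these few libraries, and the 95% intervals of fold changes come from the same fit.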

Additional observations from a re-analysis of the deposited data

How the results depend on the processing

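The members had an adjusted p above 0.05 in every alternative run. The directions of Prosalpha6T, Prosbeta2R1, Rpt6R, Prosalpha4T2 and the more abundant transcript of Rpt3R were the same in all alternatives, with the log2 fold change of Prosalpha6T between 0.20 and 0.43. For the number of transcripts called among all, DESeq2 gave 76, the replicate block by repeat number 5 and the fits without 1 library between 0 and 1, against 0. Members higher in LB-flies at an unadjusted p under 0.05 numbered 1, but 2 with at least 10 reads in every library or with transcripts summed, 0 with the replicate block by either number, 0 when scaled to the spermatocyte and spermatid list (an alternative chosen after seeing the data), and between 0 and 1 without 1 library. The log2 fold change of Prosalpha3T (-0.0063) was 0.0033 with the library total only and 0.032 and 0.044 with the replicate block by repeat number and library name, and between -0.11 and 0.052 without 1 library. That of Prosalpha4T1 was between -0.044 and 0.34 without 1 library and -0.031 scaled to the list, and that of Prosbeta2R2 was -0.056 with that scaling. The less abundant transcript of Rpt3R (13 reads) had between -0.70 and 0.14 without 1 library and -1.41 with the replicate block by repeat number, and the summed transcripts of Rpt3R had 0.42. The log2 fold change of Prosalpha4T2 (0.44) was 0.19 with the replicate block by repeat number and between 0.20 and 0.63 without 1 library. The cause of these changes was not tested. Same-numbered libraries had deviations from the group mean with correlations of -0.16 and 0.019 (repeat number) and -0.16 and -0.18 (library name) over 7022 transcripts. With 2 NB libraries, the deviations of 1 are the negative of those of the other. The correlations are thus tied to each other and cannot show whether vials were paired. A pairing of vials is not described, and the numbers were not taken as pairs. Leaving out 1 NB library assumes that the remaining one varies like the LB libraries.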
